A study of Homo sapiens
Mus musculus with 8 samples.

Results

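The transcription factor p53 and 5 of its best known target genes were followed in 4 untreated lymphocyte lines that had been profiled as single cells with 3 library kits. The 9 genes were taken by name, in the knowledge of earlier results of these data. They are the mouse genes Trp53, Mdm2, Cdkn1a, Ccng1, Zmat3 and Perp and the human genes MDM2, CDKN1A and CCNG1, out of 60736 genes of both species in the count matrices. EL4 is a mouse CD4+ T cell line, IVA12 a mouse B cell line, Jurkat a human CD4+ T cell line and TALL-104 a human CD8+ T cell line made of smaller cells. All were established lines from a cell repository, TALL-104 was kept in interleukin-2, and the lines were pooled in equal numbers of viable cells before capture. No line was irradiated or drugged, so the comparisons below are between lines without such treatment and between kits. Each is a single cell line, sampled in few pools, and stands for itself, not for a cell type.

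p53 is a DNA-binding protein that cells hold at a low level, because the ubiquitin ligase encoded by Mdm2 marks it for destruction. DNA damage or oncogene activity frees it from this ligase, and it then switches on genes that stop the cell cycle, repair DNA or kill the cell. Mdm2 is itself such a target, so that p53 and its inhibitor form a feedback loop. Lymphocytes and the tumours that arise from them are a textbook setting for this pathway.

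Of 8 libraries in the labels, 7 were analysed: 1 from the Chromium 3′ v2 kit, 4 from 3′ v3 and 2 from 5′ v1. The labels' other 3′ v2 library was not analysed here. Targeted cells differed, at 3000, 3000, 6000 and 6000 for 3′ v3 replicates 1 to 4 and 5000 and 2000 for 5′ v1. The 3′ v2 library targeted 2000. Unique molecular identifiers (UMIs, 1 for each captured transcript) totalled 24790710 to 251164949 per library. Barcodes with at least 1000 UMIs and more than 80% of them from 1 species were taken as cells. A mouse cell was EL4 where Lgals1 and S100a6 together had at least 5 times the UMIs of Epcam, Cd24a, Ctss and Ckap4, and IVA12 in the reverse case. A human cell was TALL-104 where NKG7, CST7 and CD8A made up at least 0.1% of its UMIs and Jurkat where they made up less than 0.02%. This gave 470 to 4096 EL4, 166 to 1962 IVA12, 289 to 3054 Jurkat and 30 to 1050 TALL-104 cells per library.

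Markers that the rule did not use mostly fitted the names. EL4 held Cd3e, Cd3g, Thy1 and Lck, and Jurkat held CD3D, CD3E, LCK and CD1E. TALL-104 held CD3D, CD3E and LCK at like levels, so that of these only CD1E, at 231 to 490.2 counts per 1000000 UMIs (CPM) in Jurkat and at most 15.2 in TALL-104, told the human lines apart. CD4 reached only 3.74 CPM in Jurkat. IVA12 held the B cell genes Cd79b at 216 to 353 and Cd74 at 48.7 to 158 CPM, but Cd79a and H2-Aa reached only 0.345 and 0.746. TALL-104 held PRF1 and GZMA, while CD8B was near 0. Some libraries stood apart. The 5′ v1 libraries held only 70 and 30 TALL-104 cells, and in the 3′ v2 library only 54.2% of the IVA12 cells had under 10% mitochondrial UMIs. So did only 48.1% and 44.2% of the Jurkat cells in 3′ v3 replicates 2 and 4, where the median share was 10.1% and 10.2%. In 3′ v3 replicate 3 the median TALL-104 cell had 15.3% mouse UMIs. Pairs of libraries shared 0 to 24 cell barcodes.

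Levels are CPM, counts of the gene per 1000000 UMIs of the line's own species in that library, always in the order 3′ v2, the 4 replicates of 3′ v3, then the 2 replicates of 5′ v1. Such levels are compared only within a gene, since kits that read one end of a transcript do not count all genes alike. As both species were captured together, the mouse UMIs found in Jurkat cells give the background from stray RNA for a mouse gene, and the human UMIs found in EL4 cells do so for a human gene. They are scaled to the host cells' UMIs of their own species. Counting the UMIs of both species, the median cell held 10075 to 18522 in Jurkat and 22916.5 to 28004 in EL4. The median TALL-104 cell held only 1929 to 2761.5 UMIs, so that an equal amount of stray RNA would be a larger CPM there.

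Mdm2, the inhibitor of p53, was far higher in IVA12 than in EL4. In IVA12 it stood at 1368 CPM in 3′ v2, at 2159, 2568, 2196 and 2541 in 3′ v3 and at 2170.1 and 2293 in 5′ v1. In EL4 it stood at 24.7, then 62.4, 72.0, 109 and 151, then 53.8 and 51.5 CPM. The lines did not come near each other in any library, the lowest IVA12 value lying far above the highest EL4 value. The log2 difference EL4 minus IVA12 was -4.94 (SE 0.20, n = 7 libraries), with an adjusted p of 1.71e-08 in edgeR's quasi-likelihood test with the library as a block, and it ranked 1234 of 11734 mouse genes by size. It was -4.61 within the 3′ v3 libraries and -5.20 within the 5′ v1 libraries.

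Stray mouse RNA also carried Mdm2. Jurkat cells, which have no mouse genome, held Mdm2 at 10.1 CPM of their own human UMIs in 3′ v2, at 18.5, 18.0, 61.8 and 51.3 in 3′ v3 and at 3.31 and 0.578 in 5′ v1. EL4 and Jurkat cells both held most Mdm2 in 3′ v3 replicates 3 and 4, while EL4 held least in 3′ v2 and Jurkat cells held least in 5′ v1. Replicates 3 and 4 of 3′ v3 were those that targeted 6000 cells, and the part of cell loading was not tested. Barcodes with under 100 UMIs, which hold free RNA, carried Mdm2 at 668 to 1569 CPM. In the 5′ v1 libraries, where Jurkat cells held almost none, EL4 still stood above 50 CPM. How much of the EL4 level in 3′ v3 was stray RNA was not tested.

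**Figure D1:**
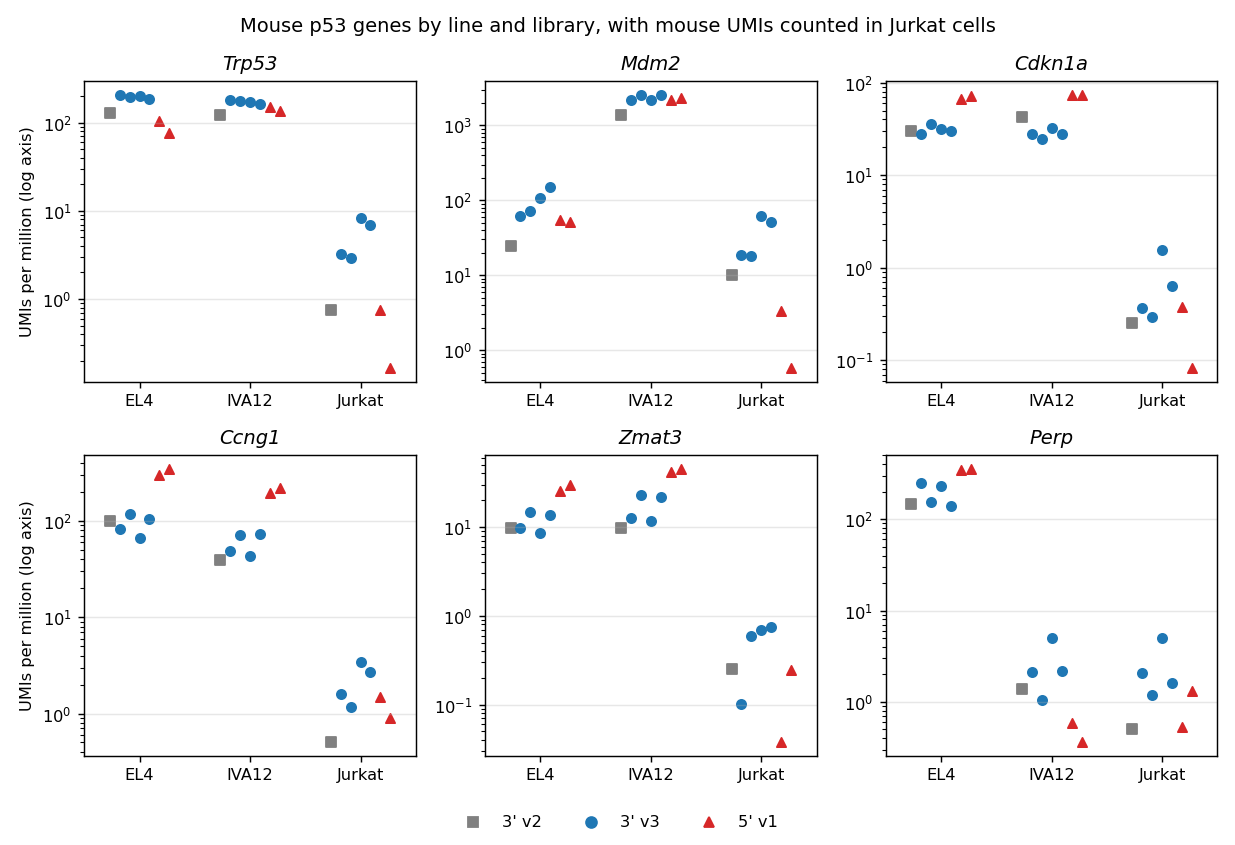
Levels of the 6 mouse genes in CPM (log axis) for EL4, IVA12 and, as the background from stray RNA, Jurkat cells, with 1 symbol for each of the 7 libraries. Mdm2 lies between 1368 and 2568 in IVA12 and at 151 or below in EL4, Perp lies in IVA12 where it lies in Jurkat cells, and Trp53 and Cdkn1a overlap between the mouse lines.

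The gene for p53 itself did not separate the mouse lines when all kits were pooled. Trp53 stood in EL4 at 128 CPM in 3′ v2, at 208, 194, 199 and 188 in 3′ v3 and at 105 and 75.7 in 5′ v1. In IVA12 it stood at 123, then 180.1, 175, 173 and 165, then 153 and 135. EL4 was the higher line in every 3′ library and the lower one in both 5′ v1 libraries. The pooled log2 difference was 0.02 (SE 0.13, edgeR quasi-likelihood adjusted p = 0.909). Within the 4 libraries of 3′ v3 it was 0.25 (edgeR adjusted p = 0.00264), where 9863 of 12467 genes passed. Within the 2 libraries of 5′ v1 it was -0.47 (edgeR adjusted p = 1.15e-11), where 10455 of 12256 genes passed. With only 2 libraries this p-value says little about the spread between replicates. Jurkat cells held Trp53 at 0.165 to 8.40 CPM, far under both mouse lines.

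Among the targets linked to cell cycle and growth, Cdkn1a did not differ between the mouse lines and Ccng1 did. Cdkn1a encodes p21, the inhibitor of cyclin-dependent kinases through which p53 stops division. Its EL4 levels were 30.3, then 28.2, 35.8, 31.8 and 30.3, then 67.2 and 71.5 CPM, and its IVA12 levels were 42.4, then 27.8, 24.7, 32.4 and 28.1, then 74.2 and 73.8. The values of the lines interleaved in 3′ v3, and by CPM IVA12 was slightly higher in 5′ v1. The fitted log2 difference within 5′ v1 was 0.11, with EL4 higher, so that the order depended on scaling. The log2 difference was 0.10 (SE 0.10, edgeR quasi-likelihood adjusted p = 0.378), with EL4 higher in 3 of 7 libraries.

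Ccng1 encodes cyclin G1, which recruits a phosphatase to the Mdm2 protein. It stood in EL4 at 101, then 82.1, 117, 66.3 and 105, then 301 and 349 CPM, and in IVA12 at 39.0, then 48.5, 72.3, 42.9 and 72.7, then 196 and 221. EL4 was higher in 7 of 7 libraries, although the lines' ranges overlapped across kits. The log2 difference was 0.84 (SE 0.11, edgeR quasi-likelihood adjusted p = 4.66e-05).

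The targets linked to cell death went in opposite directions. Zmat3, a zinc finger RNA-binding protein, stood in EL4 at 9.84, then 9.72, 14.8, 8.46 and 13.6, then 25.1 and 29.4 CPM, and in IVA12 at 9.66, then 12.7, 23.0, 11.6 and 21.7, then 41.1 and 45.2. IVA12 was higher in 6 of 7 libraries, and the log2 difference EL4 minus IVA12 was -0.43 (SE 0.10, edgeR quasi-likelihood adjusted p = 0.00245). Perp, a membrane protein of cell junctions that takes part in p53-dependent death, stood in EL4 at 145, then 249, 154, 231 and 140.1, then 344 and 356 CPM. In IVA12 it stood at 1.38, then 2.14, 1.06, 5.04 and 2.17, then 0.585 and 0.364.

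Jurkat cells held Perp at 0.506 to 5.00 CPM, nearly the same range as IVA12, so the IVA12 values were at background and expression there was not detectable. The fitted log2 difference of Perp, 7.07 (SE 0.49, edgeR quasi-likelihood adjusted p = 3.30e-07), therefore measures EL4 against background. Its rank by size was 60 of 11734, and it was 6.2 within 3′ v3 and 9.60 within 5′ v1.

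Thus 4 of the 6 mouse members passed the test, 2 with the higher level in EL4 (Ccng1, Perp) and 2 in IVA12 (Mdm2, Zmat3). Of all 11734 mouse genes tested, 77.0% passed, 39.1% higher in EL4 and 37.9% in IVA12, so that the members' share was near that of any gene. A wider list of 60 mouse genes of the pathway gave the same picture: 52 could be tested, 23 were higher in EL4 and 22 in IVA12, and the median log2 difference was 0.06 against 0.01 over all genes.

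Within that list the roles did not split evenly. Of 9 genes tested in the role of regulators, which includes Trp53 itself, 1 was higher in EL4 and 6 in IVA12. Of 9 genes of cell cycle and growth, 6 were higher in EL4 and 2 in IVA12. The 13 genes of cell death and membrane gave 7 and 5, the 6 of DNA repair and nucleotides 4 and 2, and the 15 of metabolism and other functions 5 and 7. These counts carry no test against other genes.

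The 8 list genes with the largest called differences, other than the members, were mostly high in IVA12. Cdkn2a, whose locus encodes both p16 and the Mdm2 inhibitor p19Arf, stood at 1.30 to 12.5 CPM in EL4 and 295 to 631 in IVA12 (log2 difference -6.44, edgeR adjusted p = 2.03e-07). Jurkat cells held it at 0.165 to 9.37, a range that overlapped the EL4 values. Btg2, an antiproliferative factor, stood at 18.6 to 49.8 in EL4 and 448 to 920 in IVA12 (-4.22, adjusted p = 2.79e-09 in edgeR).

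Pmaip1, which encodes the death protein Noxa, stood at 0.170 to 1.66 CPM in EL4 and 15.2 to 44.6 in IVA12 (-5.37, edgeR adjusted p = 2.62e-08). Jurkat cells held it at 0 to 0.961 CPM, a range that overlapped the EL4 values. Trp53inp1, a stress-response gene, stood at 3.82 to 26.9 and 35.2 to 273 (-3.43, edgeR adjusted p = 2.91e-08). Tigar, a regulator of sugar breakdown, stood at 3.20 to 11.7 and 37.4 to 57.4 (-2.50, edgeR adjusted p = 5.74e-07). All 3 had EL4 and IVA12 ranges that did not meet, which is likely for genes picked by the size of their difference. How many of all genes have such ranges was not counted.

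Dcxr (-5.97), a sugar reductase, and Psrc1 (-5.51), a spindle protein, were also higher in IVA12, against at most 0.233 and 0.596 CPM in EL4. Ephx1, the microsomal epoxide hydrolase, was the one of the 8 that was higher in EL4 (5.64), at 7.97 to 32.0 CPM against 0.0909 to 1.40 in IVA12. For these genes the low line was near the level of Jurkat cells. Among other regulators, Mdm4, the partner of Mdm2, was slightly higher in EL4 (0.22, edgeR adjusted p = 0.0103), a call that ended without the block (adjusted p = 0.126) and with scaling by total counts (adjusted p = 0.0801). The phosphatase gene Ppm1d was higher in IVA12 (-1.21, edgeR adjusted p = 4.92e-07).

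**Figure D2:**
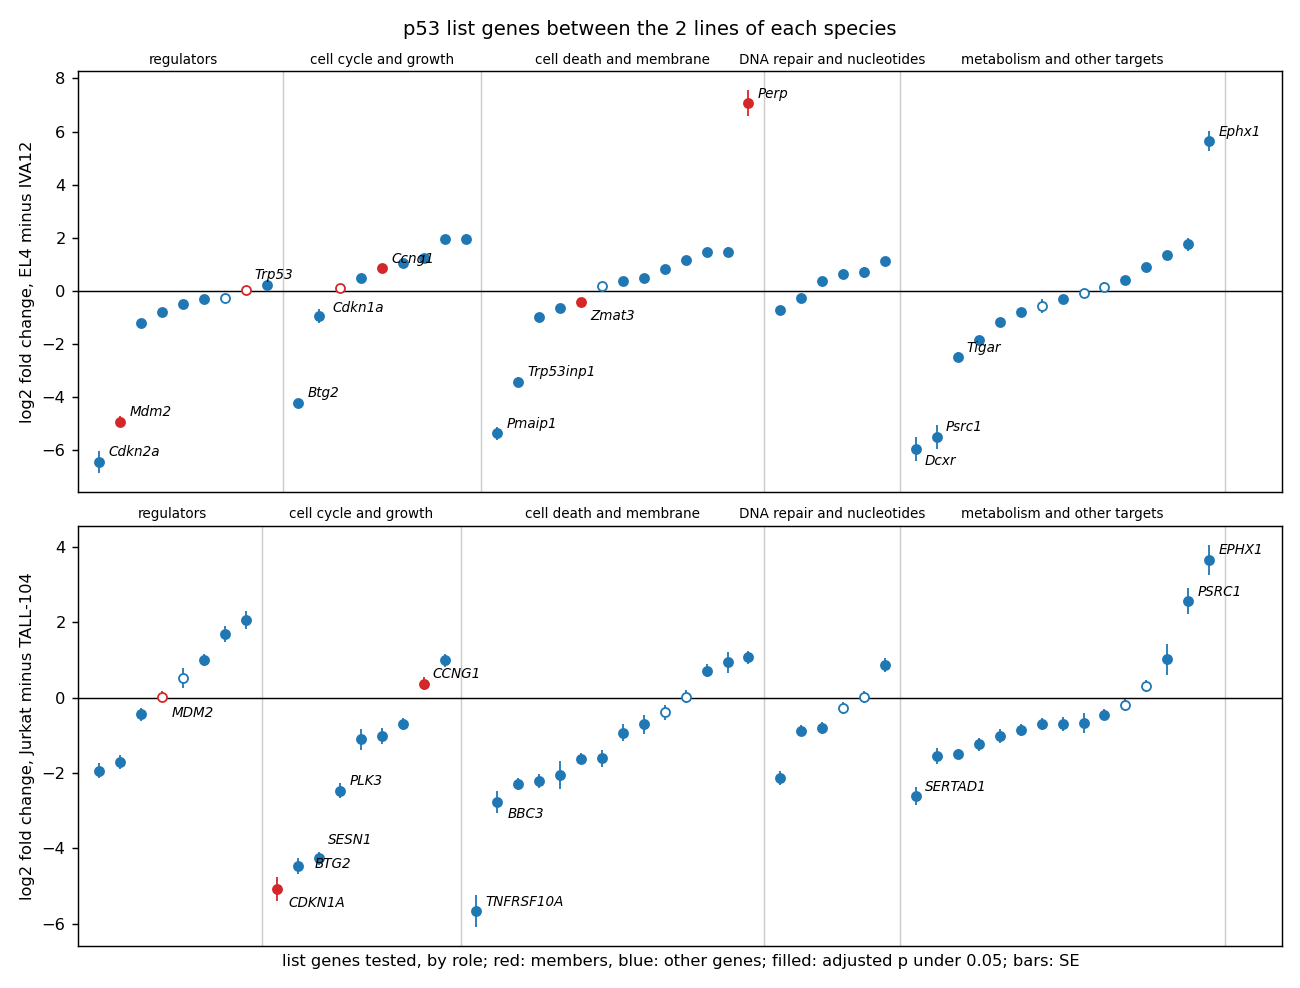
Log2 differences of the tested pathway genes by role, EL4 minus IVA12 in the upper panel and Jurkat minus TALL-104 in the lower, with the standard error of edgeR's fit as bars, members in red and filled symbols for an adjusted p under 0.05. Mouse genes lie on both sides of 0 in nearly equal numbers (23 and 22 called), while of the called human genes 12 lie on the Jurkat and 32 on the TALL-104 side.

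Counted over single cells, Mdm2, Perp, Ccng1 and Zmat3 also separated the mouse lines. Each cell was thinned to 5000 UMIs, which left out 19 to 1320 EL4 and 10 to 195 IVA12 cells per library, and the share of cells with at least 1 UMI was compared over the 7 libraries. Mdm2 was seen in 99.3% to 100% of IVA12 cells and in 12.2% to 34.6% of EL4 cells. At the same depth 0.33% to 25.1% of Jurkat cells held an Mdm2 UMI, and the EL4 share was the higher one in each of the 7 libraries. Perp was seen in 44.0% to 77.5% of EL4 cells and in 0% to 2.38% of IVA12 cells, the latter at the Jurkat level of 0% to 2.52%.

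Ccng1 was seen in a median of 35.1% of EL4 and 25.6% of IVA12 cells, and Zmat3 in 5.09% and 9.80%. For these 4 genes the direction was the same in 7 of 7 libraries, with an adjusted p of 0.0352 in a two-sided exact permutation test that flips the sign of each library's difference, adjusted over the 9 members. Each of them had the smallest unadjusted p that 7 libraries allow, 0.0156. The call of Ccng1 ended with no thinning (exact permutation test, adjusted p = 0.301), and that of Zmat3 at 2000 UMIs per cell (adjusted p = 0.113) and with mitochondrial shares under 10%. Cdkn1a was seen in a median of 12.8% of EL4 and 11.9% of IVA12 cells, higher in EL4 in 6 of 7 libraries (exact permutation test, adjusted p = 0.117). Trp53 was seen in 60.2% and 53.1% (exact permutation test, adjusted p = 0.756).

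The spread over cells was described for Mdm2 and Cdkn1a. At 5000 UMIs per cell the median IVA12 cell held 6 to 12 Mdm2 UMIs, depending on the library, and the 1% of cells with the most held 3.17% to 4.19% of them. For Cdkn1a the median IVA12 cell held 0, the richest cell held up to 24, and the top 1% of cells held 22.9% to 38.5% of all Cdkn1a UMIs. In EL4 the top 1% held 13.6% to 24.1%. For Zmat3, also at a median of 0, it was 11.6% to 25% in IVA12 and 14% to 33.3% in EL4. A low mean by itself raises this share, so that it does not compare the genes.

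Ccng1 was the member with the highest rank correlation with Cdkn1a over cells. Over the cells of a library, Spearman's rho between them was 0.159 to 0.295 in EL4 and 0.0985 to 0.431 in IVA12, as a description only, since cells of a library share its depth and its free RNA. The highest rho in both lines was in 5′ v1 replicate 2, where IVA12 cells with a Cdkn1a UMI held a mean of 2.86 Ccng1 UMIs and those without held 0.712 (81 and 365 cells). In EL4 cells of that library the means were 3.19 and 1.21. The contrast in IVA12 was smaller in 3′ v3, where the means were 0.467 and 0.239 in replicate 1 and 0.371 and 0.182 in replicate 3. For Zmat3, which had fewer UMIs, rho was 0.0184 to 0.170 in EL4 and -0.0109 to 0.186 in IVA12. Few UMIs by themselves limit rho, so that it does not compare the genes. Between Cdkn1a and Mdm2 in IVA12, rho ran from -0.137 to 0.107. It was negative in 6 of 7 libraries, the exception being 3′ v2 with 20 cells that held Cdkn1a.

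**Figure D3:**
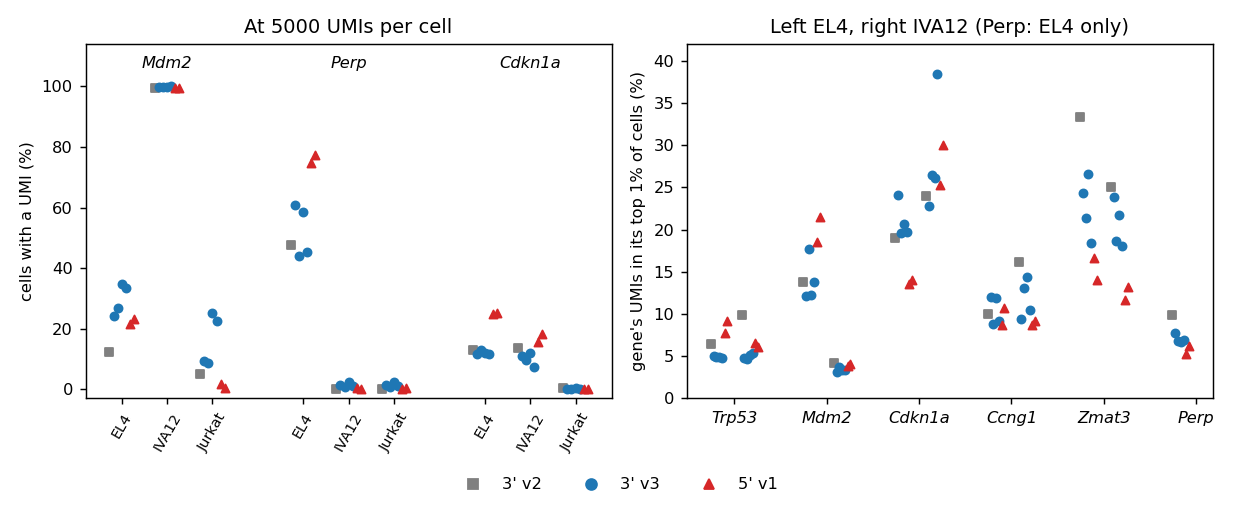
Single cells thinned to 5000 UMIs, 1 symbol per library: the percentage of cells with a UMI of Mdm2, Perp and Cdkn1a in EL4, IVA12 and Jurkat (first panel), and the percentage of a gene's UMIs held by the 1% of cells with the most of them, EL4 beside IVA12 (second panel). Mdm2 is seen in 99.3% to 100% of IVA12 cells, and the shares of the second panel run higher for genes with few UMIs, such as Cdkn1a (22.9% to 38.5% in IVA12) and Zmat3 (11.6% to 25%).

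In the human lines CDKN1A had the largest difference of the 3 members. In TALL-104 it stood at 16.6 CPM in 3′ v2, at 14.4, 18.0, 15.7 and 24.3 in 3′ v3 and at 99.1 and 217 in 5′ v1. In Jurkat it stood at 0.253, then 0.538, 1.18, 0.688 and 2.03, then 1.86 and 1.98. Every TALL-104 value lay above every Jurkat value, and EL4 cells held 0 to 0.155. The log2 difference Jurkat minus TALL-104 was -5.08 (SE 0.32, n = 7 libraries, edgeR quasi-likelihood adjusted p = 2.79e-13), with a rank by size of 334 of 10228 human genes. It was -4.38 within 3′ v3 and -6.13 within 5′ v1.

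These levels rest on few UMIs. TALL-104 gave 2 UMIs of CDKN1A in 3′ v2, 12 to 35 in 3′ v3 and 21 and 20 in 5′ v1. The exact 95% Poisson intervals of the 5′ v1 levels, 61.4 to 151 and 132 to 335 CPM, cover counting error only. Jurkat gave 1 to 49 UMIs per library, from more cells and with more UMIs of all genes per cell. In 3′ v3 replicate 2 the cell numbers were close, at 291 Jurkat and 243 TALL-104.

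At 1000 UMIs per cell CDKN1A was seen in 0% to 0.687% of Jurkat and 0% to 13.3% of TALL-104 cells, never more often in Jurkat (exact permutation test, adjusted p = 0.0563). The difference passed with no thinning (exact permutation test, adjusted p = 0.0281). Without 1 library it was 0.0469 to 0.113, but with 6 libraries left the exact permutation test can pass only where 6 members reach its smallest p together, so these values say nothing about stability.

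MDM2 stood at similar levels in both human lines, although from few UMIs in TALL-104. That line gave 5 MDM2 UMIs in 3′ v2, 42 to 95 in 3′ v3 and 12 and 7 in 5′ v1. Jurkat held 33.1, then 33.3, 65.8, 42.2 and 69.1, then 79.5 and 83.8 CPM, and TALL-104 held 41.5, then 33.7, 67.5, 31.3 and 65.9, then 56.6 and 75.9. The log2 difference was 0.02 (SE 0.15, edgeR quasi-likelihood adjusted p = 0.918), with Jurkat higher in 4 of 7 libraries. In both lines the 3′ v3 replicates 2 and 4, made from another pool of the lines than replicates 1 and 3, gave the higher values. These are also the replicates with the high mitochondrial shares in Jurkat, whose part in the values was not tested. Pool, capture and kit cannot be told apart across kits.

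CCNG1 stood in Jurkat at 37.4, then 46.7, 66.4, 52.7 and 65.9, then 100.3 and 109 CPM, and in TALL-104 at 33.2, then 28.9, 45.0, 36.6 and 30.5, then 89.7 and 173. Jurkat was higher in 6 of 7 libraries, the exception being 5′ v1 replicate 2 with its 30 TALL-104 cells. TALL-104 gave 4 CCNG1 UMIs in 3′ v2, 30 to 77 in 3′ v3 and 19 and 16 in 5′ v1. Within 3′ v3 the Jurkat values were again higher in replicates 2 and 4. The log2 difference was 0.37 (SE 0.16, edgeR quasi-likelihood adjusted p = 0.0497). This call did not hold without any one of the 3′ v3 libraries, where the adjusted p reached 0.262, or without the block, at 0.140. It also ended with DESeq2 (adjusted p = 0.0615), with over 95% of UMIs from 1 species (edgeR adjusted p = 0.0615) and with TALL-104 cells under 5000 UMIs (edgeR adjusted p = 0.0845).

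**Figure D4:**
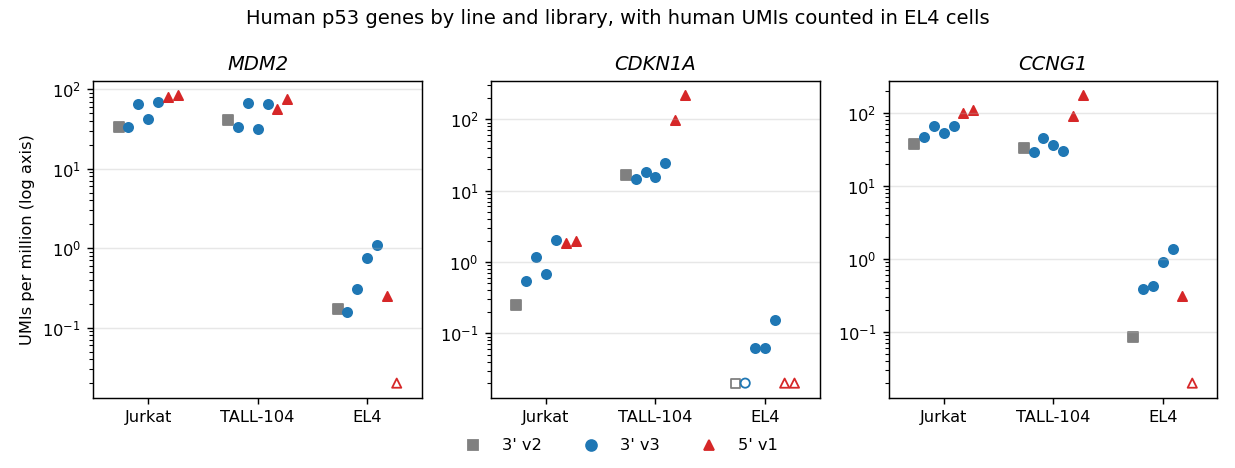
Levels of the 3 human genes in CPM (log axis) for Jurkat, TALL-104 and, as background, EL4 cells, with 1 symbol for each of the 7 libraries and open symbols at the bottom for libraries with no UMI. CDKN1A in TALL-104 (14.4 to 217) lies above Jurkat (0.253 to 2.03) in every library, while MDM2 overlaps.

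Of the 3 human members 2 passed the test, 1 in each direction. Over all 10228 human genes 65.2% passed, 34.3% higher in Jurkat and 30.9% in TALL-104. The human list of 63 pathway genes leaned to one side. Of 52 tested, 12 were higher in Jurkat and 32 in TALL-104, with a median log2 difference of -0.70 against 0.05 over all genes. Scaling by DESeq2's size factors or by total counts moved the median of all genes to 0.20 and 0.18 and the list's to -0.61 and -0.60.

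By role, the genes called higher in TALL-104 were 7 of 9 genes of cell cycle and growth against 2, 9 of 14 of cell death and membrane against 3, 3 of 6 of DNA repair against 1 and 10 of 15 of metabolism and other functions against 3. Regulators split 3 and 3 of 8. As for the mouse lines, these counts carry no test against other genes. With only the 5′ v1 libraries, 15 list genes were higher in TALL-104 and 6 in Jurkat, where 3231 of 11477 genes were called and 57.8% of these were higher in Jurkat.

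Of the 8 list genes with the largest called differences, 6 were higher in TALL-104. BTG2, the human counterpart of Btg2, stood at 2.78 to 16.0 CPM in Jurkat and 66.4 to 238 in TALL-104 (-4.47, edgeR adjusted p = 1.22e-15). SESN1, which encodes the stress sensor sestrin 1, stood at 2.53 to 8.97 and 33.2 to 149.9 (-4.27, edgeR adjusted p = 3.09e-17). TNFRSF10A, a death receptor for the ligand TRAIL, stood at 0 to 0.747 and 6.17 to 21.7 (-5.67, edgeR adjusted p = 1.36e-11). None of these 3 genes overlapped between the lines, which is likely for genes picked by the size of their difference. The share of all genes without overlap was not counted. TNFRSF10A rested on only 1 to 20 UMIs per library in TALL-104 and 0 to 12 in Jurkat.

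BBC3, which encodes the death protein PUMA, was 2.28 to 13.1 CPM in Jurkat and 8.29 to 141 in TALL-104 (-2.76), and here the ranges met. SERTAD1 (-2.61) and the kinase gene PLK3 (-2.47) completed the 6. EPHX1 (3.66) and PSRC1 (2.57) were higher in Jurkat. EPHX1 rested on 0 to 4 UMIs per library in TALL-104, and PSRC1 and PLK3 lost their calls within 5′ v1 alone (edgeR adjusted p = 0.126 and 0.177). MDM4 (-0.44, edgeR adjusted p = 0.0328) lost its call under 8 of 10 other settings, and PPM1D did not pass (0.53, adjusted p = 0.0825 in edgeR) except with total counts (adjusted p = 0.0310) and with no filter (adjusted p = 0.0104).

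The kits were then compared within each line, 4 libraries of 3′ v3 against 2 of 5′ v1. Kit cannot be told apart from pool and capture in these comparisons. In both mouse lines the targets Cdkn1a, Ccng1 and Zmat3 were lower in 3′ v3, and Trp53 was higher in 3′ v3 in EL4. In EL4 the level of Trp53 was 198 ± 8.46 (SD, n = 4) CPM in 3′ v3 and 90.4 ± 20.8 (n = 2) in 5′ v1, a log2 difference of 1.08 (SE 0.24, edgeR quasi-likelihood adjusted p = 0.0129). Without 5′ v1 replicate 2 it was 0.83 and the call ended (adjusted p = 0.143 in edgeR).

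In EL4, Cdkn1a was 31.5 ± 3.24 against 69.3 ± 3.04 CPM (-1.20, edgeR adjusted p = 0.00177), Ccng1 was 92.7 ± 22.8 against 325 ± 34.2 (-1.90, edgeR adjusted p = 0.000687) and Zmat3 was 11.6 ± 3.03 against 27.3 ± 3.01 (-1.32, edgeR adjusted p = 0.00145). Mdm2 was 98.5 ± 40.3 against 52.6 ± 1.68 (0.83, edgeR adjusted p = 0.0956). Mdm2 passed with either pool of 3′ v3 alone (edgeR adjusted p = 0.0189 and 0.0196) and with DESeq2 (adjusted p = 0.0471). Stray Mdm2 in Jurkat cells also differed, at a mean of 37.4 CPM in 3′ v3 and 1.94 in 5′ v1. The part of stray RNA in the Mdm2 difference was not tested. Perp was 193 ± 54.5 against 350.0 ± 8.73 (-0.87, edgeR adjusted p = 0.0960). The Perp difference was -0.43 with the 3′ v3 replicates 1 and 3 of one pool (edgeR adjusted p = 0.00572). It was -1.54 with replicates 2 and 4 of the other pool (edgeR adjusted p = 4.84e-07). Perp also passed with scaling by total counts (edgeR adjusted p = 0.0379). With either pool alone most genes passed in EL4, 7913 of 11886 and 8165 of 11547. Such fits leave out the spread between the pools of 3′ v3.

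Of the 6 mouse members 4 passed the test in EL4, against 36.5% of 12196 genes. Of 51 list genes tested in EL4, 7 were higher in 3′ v3 (19.1% of all genes) and 13 in 5′ v1 (17.4% of all genes), with a median of 0.06 against 0.05. The 4 largest called differences were Sat1 (-2.22), which breaks down polyamines, Bbc3 (-1.94), Ccng1 and Sesn2 (-1.64). Sesn2 lost its call without either 5′ v1 library, although its difference stayed at -1.79 to -1.50 without any 1 library.

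In IVA12, Cdkn1a was 28.3 ± 3.16 in 3′ v3 against 74.0 ± 0.282 CPM in 5′ v1 (-1.34, edgeR adjusted p = 0.0125), Ccng1 was 59.1 ± 15.7 against 208 ± 17.4 (-1.81, edgeR adjusted p = 0.00408) and Zmat3 was 17.3 ± 5.94 against 43.2 ± 2.89 (-1.33, edgeR adjusted p = 0.0191). Without either 5′ v1 library these 3 calls ended (edgeR adjusted p up to 0.160, 0.0772 and 0.195), with differences of like size. Mdm2 was 2366 ± 219 against 2231 ± 86.8 (0.11, edgeR adjusted p = 0.658) and Trp53 was 173 ± 6.34 against 144 ± 12.7 (0.30, edgeR adjusted p = 0.330). Trp53 passed with replicates 1 and 3 of 3′ v3 (0.46, edgeR adjusted p = 0.00106) and not with replicates 2 and 4 (0.14, adjusted p = 0.116). In these 2 fits 7027 of 11674 and 7681 of 11522 genes passed. Perp was at background in both kits.

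Here 3 of 6 members passed, against 9.63% of 12061 genes. Of 53 list genes, 0 were higher in 3′ v3 (4.68% of all genes) and 7 in 5′ v1 (4.94% of all genes), and the median was -0.13 against 0.02. Psrc1 (-2.05), Ccng1, Eda2r (-1.68) and Dcxr (-1.61) were the largest. Eda2r, a receptor of the tumour necrosis factor family, was read from only 7 to 46 UMIs per library, and it and Dcxr lost their calls without either 5′ v1 library.

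**Figure D5:**
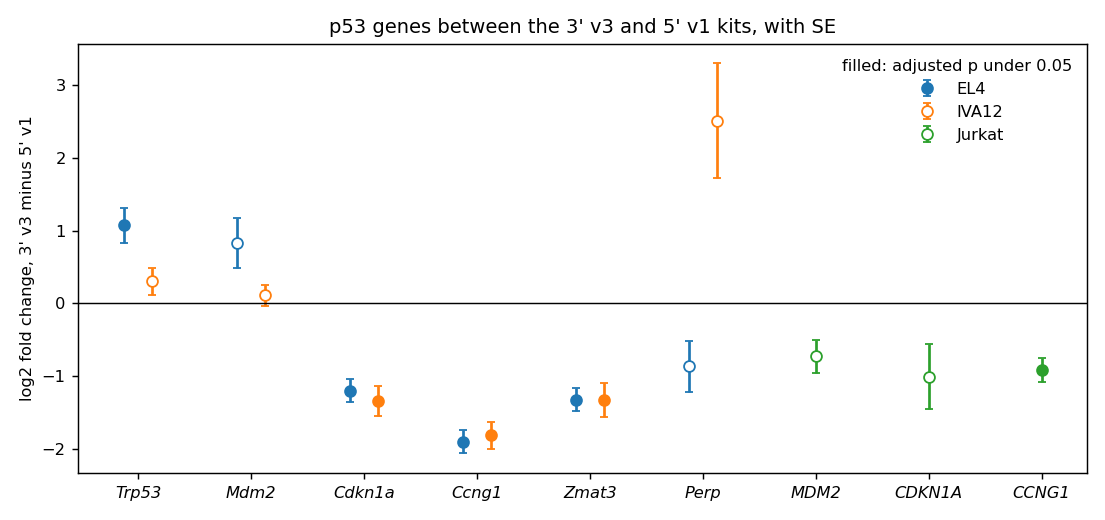
Log2 difference 3′ v3 minus 5′ v1 of the members in EL4, IVA12 and Jurkat, with the standard error of edgeR's fit as bars and filled symbols for an adjusted p under 0.05. Cdkn1a, Ccng1 and Zmat3 lie under 0 at like values in both mouse lines (from -1.20 to -1.90), and Trp53 lies at 1.08 in EL4 and 0.30 in IVA12.

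In Jurkat, CCNG1 was 57.9 ± 9.78 in 3′ v3 against 105 ± 6.33 CPM in 5′ v1 (-0.92, edgeR adjusted p = 0.0131). The call ended without either 5′ v1 library, which leaves 1 library of that kit. Without any 1 library the difference stayed at -0.93 to -0.87. MDM2 was 52.6 ± 17.6 against 81.7 ± 3.0 (-0.73, edgeR adjusted p = 0.0650) and CDKN1A was 1.11 ± 0.671 against 1.92 ± 0.0841 (-1.01, edgeR adjusted p = 0.158). With 1 pool of 3′ v3 at a time MDM2 passed (-0.96 with replicates 1 and 3, edgeR adjusted p = 1.43e-06, and -0.45 with replicates 2 and 4, adjusted p = 0.000285), as it did with DESeq2 (adjusted p = 0.0248). CDKN1A passed with replicates 1 and 3 (-1.45, edgeR adjusted p = 0.000342). With 1 pool at a time most genes passed in Jurkat, 8210 of 13740 and 9434 of 12938. Of 14131 genes 17.5% passed, and of 54 list genes 3 were higher in 3′ v3 (8.48% of all genes) and 2 in 5′ v1 (9.02% of all genes), with a median of -0.04 against 0.04.

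The largest were AK1, which had 7 to 32 UMIs per library in 3′ v3 and 0 and 1 in 5′ v1, GADD45A (1.14), a DNA damage-inducible gene, CCNG1 and XPC (0.87), which recognises damaged DNA. AK1, GADD45A and XPC also lost their calls without either 5′ v1 library. Without any 1 library their differences were 3.77 to 7.82, 1.10 to 1.23 and 0.77 to 0.96. XPC also lost its call with scaling by total counts (edgeR adjusted p = 0.0569). TALL-104, with 70 and 30 cells in 5′ v1, was not tested between the kits.

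Beyond the members, the genes whose levels followed Cdkn1a most closely over the 14 sums of library and mouse line were Pgam5 (Pearson's r of log2 levels 0.968), Nutf2 (0.961), Timm23 (0.953), AK157302 (0.952) and Gm4724 (0.951). For CDKN1A over the 14 human sums they were RELB (0.984), IRF7 (0.983), CXXC5 (0.981), FLT3LG (0.980) and EXD3 (0.980). None of the 10 is on the pathway list. The sums share kits and lines, so these are descriptions with no test.

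Last, the difference between the mouse lines was tested for a difference between the kits, which again cannot be told apart from pool and capture. For Trp53 the log2 difference EL4 minus IVA12 was larger in 3′ v3 than in 5′ v1 by 0.75 (SE 0.12, edgeR quasi-likelihood adjusted p = 0.00162), the change of order described above. Without the library as a block the adjusted p was 0.198. For Mdm2 (0.62, edgeR adjusted p = 0.143), Cdkn1a (0.12, 0.529), Ccng1 (-0.11, 0.454) and Zmat3 (0.01, 0.972) the interaction did not pass. That of Mdm2 did pass with no filter on low counts (0.65, edgeR adjusted p = 0.0457) and without 3′ v3 replicate 2. Stray Mdm2 RNA was higher in 3′ v3, as given above, and its part in this term was not tested.

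For Perp it was -3.38 (edgeR adjusted p = 0.00101, and 0.0517 without the block), and it rests on IVA12 values at background. Over 13211 genes 30.1% passed, and of 53 list genes 11 were positive (16.7% of all genes) and 8 negative (13.3% of all genes). Beside Perp the largest were Psrc1 (3.22), Ephx1 (-2.76) and Cdkn2a (2.00), each with one line near the level of Jurkat cells.

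In the human lines no member or list gene passed edgeR's interaction test, against 1.32% of 12121 genes called, 0.998% positive and 0.322% negative, and 1539 genes at an unadjusted p under 0.05. CDKN1A came nearest (1.92, SE 0.56, edgeR adjusted p = 0.0952) and passed with no filter on low counts (1.83, edgeR adjusted p = 0.0448), and CCNG1 (0.87) and MDM2 (-0.28) had adjusted p of 0.248 and 0.816. Both 5′ v1 libraries held few TALL-104 cells, which limits this test.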

How the data were processed

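Samples were 10x Genomics Chromium libraries of pooled EL4, IVA12, Jurkat and TALL-104 cells. Per the labels and the study's methods, the authors downsampled reads with seqtk, ran Cell Ranger 3.0.2 on a combined hg19 and mm10 reference, and deposited raw UMI counts for all barcodes. Cells were assigned to lines by the rules given above, with 966 to 10162 assigned cells per library. Barcodes of mixed species were left out and no doublet caller was run. UMI counts were summed per library and line.

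Sums were tested with edgeR 4.0.16 in R 4.3.3 (filterByExpr, TMM, quasi-likelihood, Benjamini-Hochberg over all genes tested, threshold 0.05). The library was the block between lines of a species, since both passed through one run. DESeq2 1.42.0, total-count scaling, no filter, other cell limits, single kits or pools and each library left out were alternatives. The code was tested on simulated data. Shares of cells used scipy 1.17.1.

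Libraries of a kit are the replicates, although they differed in targeted cells and, in 3′ v3, in pool. Replicate numbers pair nothing across kits, and p-values measure the spread between captures of few pools. The members and the pathway list (regulators, cell cycle, death, repair, metabolism) were chosen with earlier results of these data known. Named beside the members are the called list genes with the 8 (lines) or 4 (kits) largest differences.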

Additional observations from a re-analysis of the deposited data

Results flagged for a closer look

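The contrast between EL4 and IVA12 differed between the 3′ v3 and 5′ v1 kits for the 5 mouse genes flagged here. They were flagged by the interaction term of edgeR's quasi-likelihood test, as called members or as the 4 largest called list genes. Of 53 list genes, 11 were called positive and 8 negative, where 30.1% of all genes passed. For Trp53 the log2 difference EL4 minus IVA12 was larger in 3′ v3 by 0.75 (adjusted p = 0.00162), with EL4 above IVA12 in all 4 libraries of 3′ v3 and under it in both of 5′ v1. Both lines held Trp53 far above Jurkat cells. For Perp the term was -3.38 (adjusted p = 0.00101 in edgeR), and the IVA12 levels of 0.364 to 5.04 CPM spanned nearly the same range as Jurkat cells, 0.506 to 5.00 CPM.

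For the other 3 one line also lay near background. Psrc1 had a term of 3.22 (edgeR adjusted p = 0.00520), with EL4 at 0.0613 to 0.596 CPM. Ephx1 had one of -2.76 (edgeR adjusted p = 0.0244), with IVA12 at 0.0909 to 1.40. Cdkn2a had one of 2.00 (edgeR adjusted p = 0.0154), with EL4 at 1.30 to 12.5. Without the library as a block the Trp53, Perp, Ephx1 and Cdkn2a terms did not pass (edgeR adjusted p = 0.198, 0.0517, 0.161 and 0.168). Without 5′ v1 replicate 2 the Psrc1, Ephx1 and Cdkn2a terms did not pass, and without replicate 1 Psrc1 and Ephx1 did not (edgeR adjusted p up to 0.0640, 0.231 and 0.147). The part of stray RNA in these terms was not tested, and kit cannot be told apart from pool and capture.

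Among 18 groups of 4 values, the levels of each member in the 3′ v3 libraries of each line of its species, no library stood apart by Dixon's criterion.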

How the results depend on the processing

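Both lines of a species share a library, which pairs them, so the library was the block. Without the block the mouse interaction called 620 genes, with 1 list gene positive and 1 negative, and the human one 9. Among the members the fit without the block ended the calls of CCNG1 between the human lines and of Trp53 and Perp in the mouse interaction. The limits of these data are the 2 libraries of 5′ v1, the 70 and 30 TALL-104 cells in them, and the single 3′ v2 library. With 6 libraries the smallest p of the exact test of shares is 0.03125, and members pass after adjustment only where 6 reach it together, so its counts without 1 library, 0 to 6 members, say nothing about stability.

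Kit counts rose when one pool of 3′ v3 was used. With replicates 1 and 3, EL4 gave 7913 genes (17 list genes positive, 21 negative), IVA12 7027 (10, 22) and Jurkat 8210 (14, 18). With replicates 2 and 4 they gave 8165 (15, 24), 7681 (12, 24) and 9434 (18, 18). Leaving out 1 library gave 1051 to 4369 genes in EL4 (2 to 9 positive, 6 to 14 negative), 20 to 836 in IVA12 (0, 1 to 7) and 113 to 2156 in Jurkat (0 to 3, 0 to 3), lowest without a 5′ v1 library. DESeq2 gave 2016 genes and 1 positive in IVA12 and 6 positive in Jurkat. The mouse interaction ran from 1387 to 4221 genes (5 to 12, 6 to 11) and the human one from 2 to 355 (0 to 1, 0 to 1). The human interaction gave 290 genes with no filter (2, 1) and 1 negative list gene with mitochondrial shares under 10%. Jurkat against TALL-104 gave 3231 genes (6, 15) in 5′ v1 alone.

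Values near 0 changed sign. Trp53 between the mouse lines was -0.00110 with DESeq2, -0.0789 with total counts, -0.47 in 5′ v1 alone, -0.00936 under 10% mitochondrial UMIs and -0.0529 to 0.130 without 1 library. Cdkn1a was -0.00134 with total counts. MDM2 was -0.0150 in 3′ v3 alone, -0.0639 under 10% mitochondrial UMIs and -0.0252 to 0.159 without 1 library, and CCNG1 was -0.15 in 5′ v1 alone. The Zmat3 interaction was -0.0208 without the block and -0.0810 to 0.0727 without 1 library. Shares of cells with a UMI, in percentage points, were -1.32 for Trp53 with no thinning, -0.0787 at 2000 UMIs, -1.90 under 10% mitochondrial UMIs and -0.0707 to 4.68 without 1 library. For CCNG1 the main value was -0.197, against 42.2 with no thinning, 2.56 at 2000 UMIs and -0.9996 to 1.88 without 1 library. For MDM2 the main value was 0.546, against 40.4 with no thinning and -0.341 under 10% mitochondrial UMIs. Both unthinned differences passed (exact permutation test, adjusted p = 0.0281), but they do not allow for the greater depth of Jurkat than of TALL-104 cells. Limits on the mouse marker ratio (20) and on cells over 100000 UMIs were added after the data were seen and left each count within 1.5 times.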

Other observations

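The genes that lie beside human MDM2 in the RefSeq annotation of GRCh38.p14 were looked up by symbol in the mouse lines, a choice made after the Mdm2 values had been seen. No mouse annotation was used, so their order in the mouse genome was not examined. Mean levels in EL4 and IVA12 over the 7 libraries were 74.8 and 2185 CPM for Mdm2. For Cpm, which encodes carboxypeptidase M, they were 5.09 and 79.4, a log2 difference of -3.89.

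The other neighbours did not share this direction. Mdm1 was at 13.7 and 5.41 (log2 difference 1.44), Rap1b at 159 and 73.6 (1.14), Nup107 at 32.8 and 28.7 (0.19), Slc35e3 at 5.64 and 5.52 (0.11), Cpsf6 at 125 and 75 (0.80) and Yeats4 at 116 and 94.5 (0.38). LYZ had no tested mouse gene of that symbol.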
